A study of Chlamydomonas reinhardtii with 12 samples.

Results

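4 genes of the green alga Chlamydomonas reinhardtii code for the enzymes that turn acetyl-CoA into acetate. They are the phosphotransacetylases PAT1 and PAT2 and the acetate kinases ACK1 and ACK2. They were chosen by identifier, as every model in the table whose name starts with Cre09.g396650 (PAT2), Cre09.g396700 (ACK1), Cre17.g699000 (PAT1) or Cre17.g709850 (ACK2). Each identifier matched 1 model, so the set holds 4 of the 17301 models. Transcripts were measured by RNA sequencing in 12 samples, 4 strains at 3 stages with 1 sample each. The strains were CC-124, which carries its own full-length CRR1, the mutant crr1, and the strains crr1:CRR1 and crr1dCys, in which that mutant carries a full-length copy of CRR1 or a form known to lack the cysteine-rich end of the protein. CRR1 is a transcription factor that governs the response of this alga to copper shortage. All cultures grew in the light in TAP, a medium that contains acetate. They were sampled in the light with air (light-oxic) or after 0.5 h or 6 h in stirred, sealed bottles in the dark (dark-anoxic). Darkness and loss of oxygen started together and cannot be told apart.

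Phosphotransacetylase replaces the CoA of acetyl-CoA by phosphate, and acetate kinase passes that phosphate to ADP, which gives acetate and ATP. In dark, anoxic cells of this alga acetate is one of the main fermentation products beside formate and ethanol, and the kinase step is a source of ATP that needs no oxygen. Both reactions can run backwards and then feed acetate into metabolism. PAT2 and ACK1 are known as the chloroplast pair and PAT1 and ACK2 as the mitochondrial pair.

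Values are RPKM, reads scaled to the length of the model and to the depth of the library, so levels of different genes can be set side by side. The 20 columns rested on 12000629 to 18894048 reads each, as read from the steps of the low values. A total of 8 samples had 2 columns and 4 samples had 1. The columns carry a series number (TS1, TS2 or TS4) that the labels do not explain. CC-124 occurs in TS2 only and TS4 holds crr1:CRR1 only.

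The TS4 column labelled crr1:CRR1 at 6 h stood apart. Its log2(RPKM + 1) values correlated with those of its repeat column with r = 0.836, against 0.981 to 0.991 in the other 7 pairs. It also went against its strain label in part. A total of 3 models were at or above 1 RPKM in every CC-124 column and at 0 in the 16 other columns of the crr1-derived strains, and all 3 were above 0 in it, at 2.19, 8.66 and 8.83 RPKM. In the reverse direction, 3 models were at 0 in CC-124 and at or above 1 RPKM in those 16 columns, and in it they stood at 0.8, 4.94 and 12.2 RPKM. PAT1 is 1 of the first 3. Results at 6 h that rest on this column are therefore also given without it. The identity of CRR1 among the models was not looked up, because the reference table used here pairs no identifier with that name, so the strain labels were not checked on it.

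ACK1, the acetate kinase of the chloroplast pair, rose at 0.5 h in all 4 strains and fell again by 6 h, when it stood at 0.285 to 0.879 times its light level, or 0.476 to 0.879 times with the TS4 column left out. In light-oxic culture it stood at 34.3 RPKM in CC-124, at 18.4 and 14.4 in the crr1:CRR1 columns, at 21 and 15.6 in crr1dCys and at 14.2 and 13.6 in crr1. At 0.5 h it stood at 102 RPKM in CC-124, at 49.9 and 57.5 in crr1:CRR1, at 58.1 and 54.4 in crr1dCys and at 50.7 in crr1. At 6 h the levels were 30.1 RPKM in CC-124, 7.81 and 1.53 in crr1:CRR1, 9.66 and 13.5 in crr1dCys and 8.69 and 8.5 in crr1. Every column at 0.5 h was above every column of the other stages, and CC-124 was the highest strain at each stage.

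The strain means of ACK1 were 20.7 ± 9.21 RPKM (SD, n = 4 strains) in the light, 65.8 ± 24.5 at 0.5 h and 13.7 ± 11.3 at 6 h (14.5 ± 10.5 without the TS4 column). The level at 0.5 h was 2.99 to 3.65 times that in the light within a strain. On the scale of log2(RPKM + 1) the rise was 1.65 (SE 0.25, limma, adjusted p = 0.000793). By its size it came 142nd from the highest of 14311 models tested. From 0.5 h to 6 h ACK1 fell by 2.47 (SE 0.25, limma, adjusted p = 0.000114), the 17th lowest of all models. Without the TS4 column the fall was 2.25 (limma, adjusted p = 4.37e-06). Its place by size in either direction then went from 42nd to 71st. That fall was 3.4-fold in CC-124 and 4.87- to 11.5-fold in the other strains, or 4.87- to 6.88-fold without the TS4 column. Against the light, the level at 6 h differed by -0.83 (SE 0.25, limma, adjusted p = 0.0231), which misses the size of 1 that a call asks for. It was -0.60 when that column was left out (adjusted p = 0.0047, limma).

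**Figure D1:**
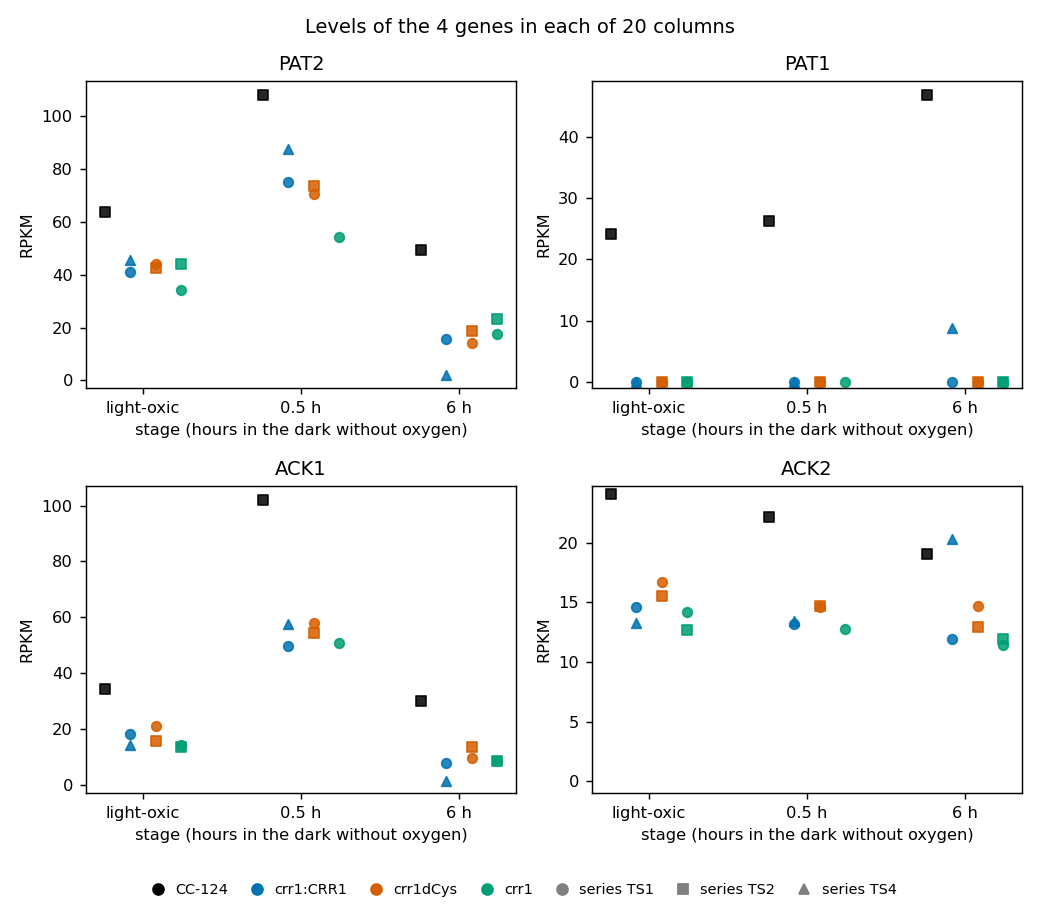
RPKM of PAT2, ACK1, PAT1 and ACK2 in each of the 20 columns, by stage, with strains in colours and series numbers as marker shapes. PAT2 and ACK1 are highest at 0.5 h in every strain, ACK2 stays between 11.4 and 24.1 RPKM, and PAT1 is above 0 in the 3 CC-124 columns and in 1 crr1:CRR1 column.

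PAT2, the phosphotransacetylase of the same pair, fell from 0.5 h to 6 h, and its level at 6 h was below that in the light in all 4 strains. It was the most abundant of the 4 in 18 of the 20 columns. In light-oxic culture it stood at 63.9 RPKM in CC-124, at 40.9 and 45.6 in the crr1:CRR1 columns, at 44.1 and 42.7 in crr1dCys and at 34.3 and 43.9 in crr1. At 0.5 h the levels were 108 RPKM in CC-124, 75.1 and 87.7 in crr1:CRR1, 70.4 and 73.5 in crr1dCys and 54.4 in crr1. At 6 h they were 49.3 RPKM in CC-124, 15.6 and 1.95 in crr1:CRR1, 14.1 and 18.7 in crr1dCys and 17.6 and 23.4 in crr1. Levels at 0.5 h overlapped those in the light, since crr1 at 0.5 h lay below CC-124 in the light, but each strain was higher at 0.5 h than at its other stages.

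The strain means of PAT2 were 47.4 ± 11.1 RPKM (SD, n = 4 strains), 79 ± 22.6 and 23.7 ± 17.7 in the light, at 0.5 h and at 6 h, the last 25.4 ± 16 without the TS4 column. The level at 0.5 h was 1.39 to 1.88 times that in the light. This difference of 0.71 on the log2 scale (SE 0.34, 95% interval -0.05 to 1.47, limma, adjusted p = 0.128) did not pass the test. With the TS4 column at 6 h left out, the same difference had an SE of 0.19 and an adjusted p of 0.0105 in limma, because the spread is pooled over the stages, and it was still under the size threshold. Between 0.5 h and 6 h PAT2 fell by 2.03 (SE 0.34, limma, adjusted p = 0.00149), the 64th lowest of all models. Without the TS4 column PAT2 fell by 1.72 (limma, adjusted p = 7.51e-05) and went from 114th to 214th by size in either direction. It also fell against the light, by 1.32 (SE 0.34, limma, adjusted p = 0.0103), and by 1.01 without the TS4 column (adjusted p = 0.00118). The call against the light depended on the strains used. Without crr1:CRR1 the value was -0.88, under the size threshold, and without crr1dCys it was -1.31 with an adjusted p of 0.0559 in limma. In the TS2 columns alone it was -0.80, and in the TS1 columns alone -1.28. The other calls held within both series. The rise of ACK1 at 0.5 h was 1.53 in TS1 and 1.58 in TS2, and its fall from 0.5 h to 6 h was -2.47 and -1.91. The fall of PAT2 from 0.5 h to 6 h was called in both, at -1.54 in TS2. At 0.5 h TS2 held only CC-124 and crr1dCys, and the crr1dCys columns of both series belong to the same samples.

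Of the 4 genes, 1 was called higher at 0.5 h (ACK1) and 0 lower, where 3.41% of all models tested were called higher and 4.92% lower. At 6 h against the light, 0 were called higher and 1 lower (PAT2), where 4.49% of all models were higher and 7.03% lower. From 0.5 h to 6 h, 0 were called higher and 2 lower (PAT2 and ACK1), where 3.40% and 5.19% of all models were. With the TS4 column left out the same calls were made, against 3.43% higher at 0.5 h, 7.13% lower at 6 h and 4.79% lower from 0.5 h to 6 h. A call asks for an adjusted p below 0.05 and a log2 difference of at least 1. All 4 models passed the minimum mean of 1 RPKM, PAT1 through its level in CC-124. Each strain and stage had 1 sample, so the strains served as replicates and a p-value reflects how far their responses differ, which is not the spread between cultures.

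**Figure D2:**
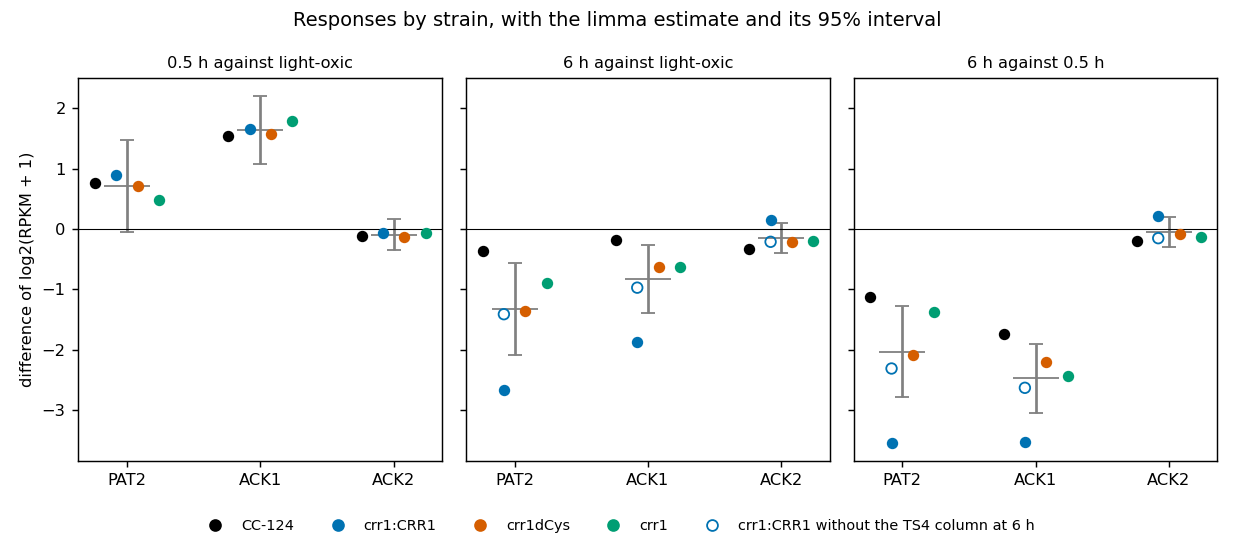
Differences of log2(RPKM + 1) between stages for PAT2, ACK1 and ACK2, with 1 point per strain and the limma estimate with its 95% interval in grey; open circles leave out the TS4 column at 6 h. The ACK1 points at 0.5 h lie between 1.55 and 1.80, and those of ACK2 between -0.13 and -0.06.

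ACK2, the acetate kinase of the mitochondrial pair, differed little between stages. In light-oxic culture it stood at 24.1 RPKM in CC-124, at 14.6 and 13.3 in the crr1:CRR1 columns, at 16.7 and 15.5 in crr1dCys and at 14.2 and 12.7 in crr1. At 0.5 h it stood at 22.1 RPKM in CC-124, at 13.2 and 13.4 in crr1:CRR1, at 14.6 and 14.7 in crr1dCys and at 12.8 in crr1. At 6 h the levels were 19 RPKM in CC-124, 11.9 and 20.3 in crr1:CRR1, 14.7 and 12.9 in crr1dCys and 11.4 and 11.9 in crr1. The levels of the stages overlapped, and the column labelled crr1:CRR1 at 6 h in TS4 was the only one of a crr1-derived strain that reached the range of CC-124. The log2 difference was -0.09 at 0.5 h (95% interval -0.34 to 0.16) and -0.14 at 6 h (95% interval -0.39 to 0.11), with adjusted p-values of 0.54 and 0.328 in limma. When the TS4 column was left out, the 6 h value was -0.23 (SE 0.09, limma, adjusted p = 0.0436), lower in 4 of 4 strains and under the size threshold. These intervals leave out a change of 1 log2 unit in either direction.

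PAT1, the phosphotransacetylase of the mitochondrial pair, was detected in CC-124 and in 1 of the 17 columns of the crr1-derived strains. In CC-124 it stood at 24.2 RPKM in the light, at 26.3 at 0.5 h and at 46.7 at 6 h, from 1031, 1328 and 2285 reads. In 16 columns of crr1, crr1:CRR1 and crr1dCys it had 0 reads. A count of 0 allows up to 3 reads, which is 0.0496 to 0.0781 RPKM in these columns. Against the highest such limit of a column at the same stage, CC-124 was at least 310-fold higher in the light, at least 356-fold higher at 0.5 h and at least 598-fold higher at 6 h. The exception was the TS4 column labelled crr1:CRR1 at 6 h, with 8.83 RPKM from 433 reads. These limits and the intervals of ratios below cover counting error only. PAT1 was at 0 in all columns of crr1 and crr1dCys and in the other columns of crr1:CRR1. Whether its level depends on CRR1 was not tested.

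Within CC-124 the level of PAT1 at 6 h was 1.93 times that in the light (exact 95% interval 1.79 to 2.08 from the read counts) and 1.78 times that at 0.5 h (1.66 to 1.9). At 0.5 h it was 1.09 times the light level (1 to 1.18). There is 1 column per stage of CC-124, so these ratios compare 3 libraries and have no replicate check. The limma values of PAT1 over 4 strains rest on 3 strains that were at 0 outside the TS4 column, so they were not read as a test. No comparison of stages called PAT1.

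The models beside PAT1 were inspected to see how far the lack of reads reached. In identifier order, the model before PAT1, Cre17.g698950.t1.1, had the same pattern, with 3.58 to 6.81 RPKM in CC-124, 0 in the same 16 columns and 8.66 in the TS4 column. The next model on that side, Cre17.g698903.t1.1, was detected in all columns, with 0.27 to 0.796 RPKM in the 16 columns and 1.24 to 4.44 in CC-124. The next on the other side, Cre17.g699050.t1.2, stood at 0.245 to 1.27 RPKM against 1.36 to 2. Complete lack of reads in the 16 columns beside detection in CC-124 thus covered PAT1 and 1 neighbour. What sets it was not tested.

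**Figure D3:**
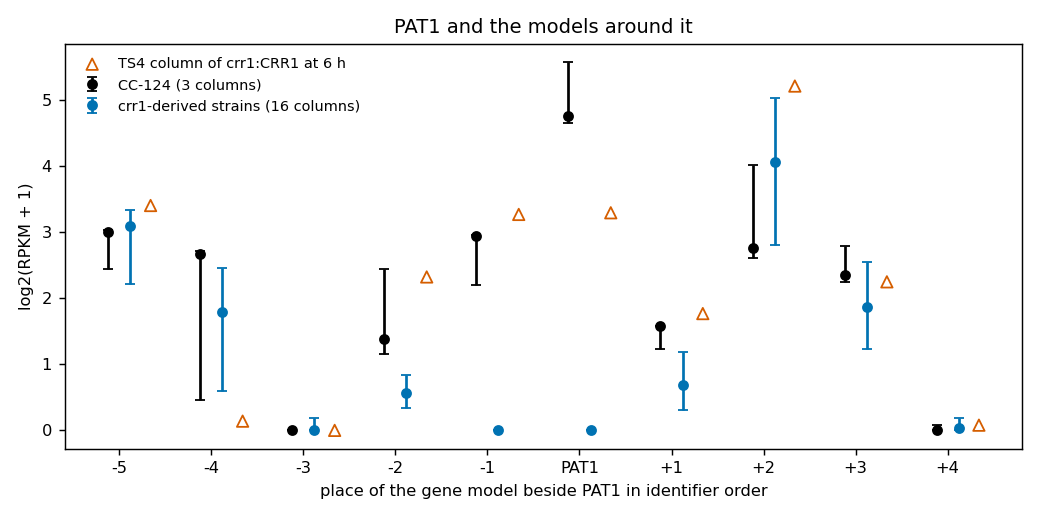
Log2(RPKM + 1) of PAT1 and of 9 models around it in identifier order; points are medians and bars run from the lowest to the highest column, for CC-124 (3 columns) and the crr1-derived strains (16 columns), with the TS4 column at 6 h as open triangles. PAT1 and the model before it are at 0 in the 16 columns and above 0 in CC-124 and in the TS4 column.

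The chloroplast pair took its largest share of the 4 transcripts at 0.5 h. PAT2 and ACK1 together made up 67% of the RPKM sum of the 4 genes in CC-124 in the light, 81.3% at 0.5 h and 54.7% at 6 h. In the crr1-derived strains, where the sum lacks PAT1, the share was 77.3% to 81.9% in the light and 89.1% to 91.5% at 0.5 h. At 6 h it was 61.7% to 72.9%, and 10.7% in the TS4 column. In all strains the share was thus highest at 0.5 h and lowest at 6 h. The sum itself went from 146 to 259 and 145 RPKM in CC-124, and in the other strains from 62.7 to 81.8 in the light to 118 to 159 and then 35.4 to 45.1, or 32.7 in the TS4 column.

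Among the kinases, ACK1 was 1.42 times ACK2 in CC-124 in the light, 4.64 times at 0.5 h and 1.58 times at 6 h. In the crr1-derived columns the median ratio was 1.08, 3.96 and 0.715, the last without the TS4 column, where it was 0.0753. All 6 columns at 0.5 h had a ratio of 3.71 or more, and none of the other 14 exceeded 1.58. Within the chloroplast pair, PAT2 was 1.86 times ACK1 in CC-124 in the light, 1.06 times at 0.5 h and 1.64 times at 6 h, with medians of 2.58, 1.35 and 2 in the other strains, the last without the TS4 column, where the ratio was 1.27. The stages overlapped in this ratio, which was 1.07 to 1.53 in the crr1-derived columns at 0.5 h and 1.39 to 2.76 in those at 6 h other than TS4. In the mitochondrial pair of CC-124, PAT1 equalled ACK2 in the light (ratio 1), was 1.19 times ACK2 at 0.5 h and 2.45 times at 6 h.

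**Figure D4:**
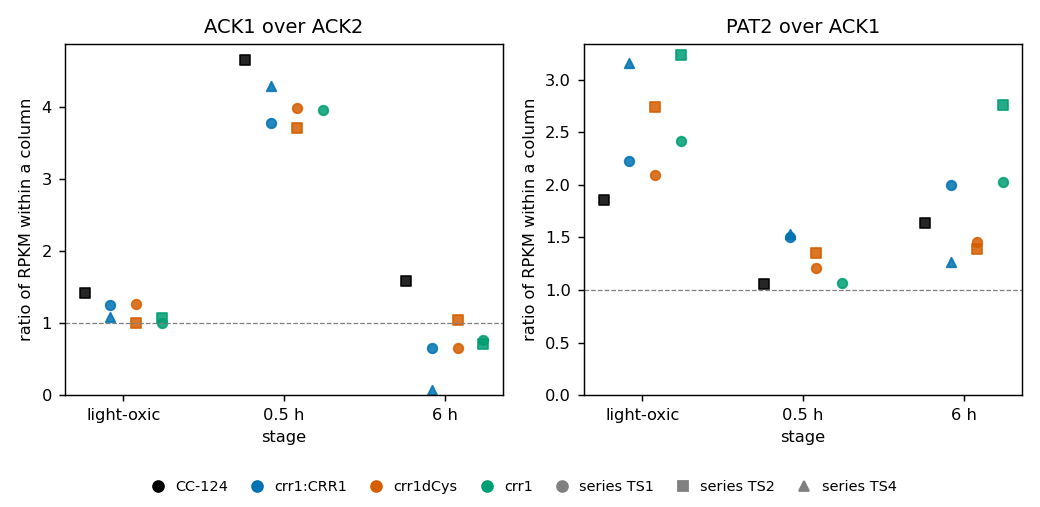
Ratio of ACK1 to ACK2 (left) and of PAT2 to ACK1 (right) in RPKM within each of the 20 columns, by stage, with strains in colours, series numbers as marker shapes and a dashed line at a ratio of 1. The ACK1 to ACK2 ratio is 3.71 or more at 0.5 h and at most 1.58 at the other stages.

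The responses of the members were also compared within strains, with a two-sided exact sign-flip permutation test over 4 strains, which cannot give a p below 0.125. A total of 12 such tests were made. The rise of ACK1 at 0.5 h exceeded the response of ACK2 by 1.74 log2 units (SD 0.08, higher in 4 of 4 strains, exact p = 0.125, adjusted 0.15). The response of PAT2 at 0.5 h was smaller than that of ACK1 by 0.76 to 1.32 log2 units in the 4 strains (mean -0.94, SD 0.26, exact p = 0.125, adjusted 0.15). From 0.5 h to 6 h the response of ACK1 minus that of ACK2 was -2.43 on average (SD 0.94, below 0 in 4 of 4 strains, exact p = 0.125, adjusted 0.15), and -2.11 (SD 0.41) without the TS4 column. At 6 h against the light, ACK1 minus ACK2 was -0.68 (SD 0.93, exact p = 0.25, adjusted 0.25), below 0 in 3 of 4 strains and 0.15 in CC-124. None of the 12 can pass at this number of strains. The 3 comparisons of PAT2 with PAT1, and those of PAT1 with ACK2, rest on strains in which PAT1 was at 0 and describe the other member.

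CC-124 had the highest strain level of PAT2, ACK1 and ACK2 at all 3 stages. In the light, ACK1 in CC-124 was 1.87 to 2.47 times the level of the other strains, PAT2 1.47 to 1.63 times and ACK2 1.5 to 1.79 times. At 6 h without the TS4 column, ACK1 was 2.61 to 3.86 times and PAT2 2.4 to 3.16 times the other strains, while ACK2 was 1.38 to 1.64 times. The order was the same within the TS2 series, which also holds crr1dCys and, in the light and at 6 h, crr1. There ACK1 in the light stood at 34.3 RPKM in CC-124 against 15.6 in crr1dCys and 13.6 in crr1, PAT2 at 63.9 against 42.7 and 43.9, and ACK2 at 24.1 against 15.5 and 12.7. CC-124 is 1 sample per stage, so no test of the level was made.

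The responses of PAT2 and ACK1 at 6 h against the light were smaller in size in CC-124 than in the other strains. Within the TS2 series, the only one with CC-124, ACK1 hardly differed between CC-124 (-0.18) and crr1dCys (-0.20), with -0.62 in crr1. PAT2 there was -0.37 in CC-124, -1.15 in crr1dCys and -0.88 in crr1. Over all columns, the response of PAT2 was -0.37 in CC-124 against -0.90 in crr1, -1.36 in crr1dCys and -2.66 in crr1:CRR1 (-1.41 without the TS4 column). For ACK1 it was -0.18 against -0.63, -0.62 and -1.87 (-0.97 without that column). ACK2 did not share this order, with -0.33 in CC-124 against -0.19, -0.21 and 0.15 (-0.21 without that column). The difference between CC-124 and the 3 crr1-derived strains was 1.27 for PAT2 (SE 0.72, limma interaction, adjusted p = 0.56) and 0.86 for ACK1 (SE 0.52, adjusted p = 0.59), and neither passed. With that column left out the values were 0.86 (SE 0.32, adjusted p = 0.191) and 0.56 (SE 0.23, adjusted p = 0.223). None of PAT2, ACK1 and ACK2 was called in this comparison, where 0.300% of all models were called higher and 0.147% lower at 6 h, and 0.280% and 0.0280% at 0.5 h. For PAT1, without the TS4 column, this difference at 6 h was 0.92 and was called. It sets 1 CC-124 sample per stage against 3 strains at 0, so the call was not read as a test.

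No response of PAT2, ACK1 or ACK2 was shown to depend on CRR1. In the comparison of both full-length strains (CC-124 and crr1:CRR1) with crr1, the difference at 0.5 h was 0.35 for PAT2 (SE 1.09) and -0.19 for ACK1 (SE 0.83). At 6 h it was -0.61 (SE 1.09) and -0.39 (SE 0.83), and 0.01 (SE 0.54) and 0.06 (SE 0.45) without the TS4 column. The values without that column average 2 full-length strains that lay on either side of crr1. For PAT2 the responses were then -0.37 in CC-124 and -1.41 in crr1:CRR1, against -0.90 in crr1. For ACK1 they were -0.18 and -0.97, against -0.63. CC-124 is not of the crr1 background, so in it strain background and CRR1 cannot be told apart. In the comparisons with crr1 and crr1dCys, all adjusted p-values of PAT2, ACK1 and ACK2 in limma were 0.898 or more over all columns. Without the TS4 column they were 0.896 or more. The errors are wide, with 2 residual degrees of freedom. Over all columns limma called 0% of all models in any of these comparisons. Its unadjusted p was under 0.05 in 218 models at 0.5 h and 460 at 6 h for crr1. For crr1dCys these counts were 70 and 878. The rise of ACK1 itself was 1.80 in crr1 and 1.58 in crr1dCys, against 1.55 in CC-124 and 1.66 in crr1:CRR1.

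In the order of the reference table (version 5.5 of the genome assembly, used for names and neighbours), PAT2 and ACK1 follow each other on chromosome 9. An entry that matches Cre09.g396694.t1.1 overlaps PAT2, so reads of these 2 models may be shared. That model stood at 0.429 to 2.33 RPKM in all samples but crr1:CRR1 at 6 h, where the TS4 column had 12.8 RPKM beside 1.95 of PAT2. On the other side of PAT2, Cre09.g396600.t1.1 rose at 0.5 h by 2.30 (limma, adjusted p = 3.01e-05), from 20.6 to 116 RPKM in CC-124. It then fell by 1.31 to 6 h (adjusted p = 0.000737). At 6 h it stood above its light level, by 0.99, or by 1.17 and called higher without the TS4 column (adjusted p = 7.33e-05, limma), where ACK1 stood below its own. This model is also in the pathway list described last. Beyond ACK1, Cre09.g396750.t1.2 stayed between 0.895 and 6.95 RPKM and was not called. PAT1 and ACK2 lie apart from each other on chromosome 17, with no overlapping entry. The models next to ACK2 in identifier order, Cre17.g709800.t1.1 and Cre17.g709900.t1.2, were not called at 0.5 h or 6 h against the light. The reference entry after ACK2, CHLRE_17g709876v5, was not among the models inspected.

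Likeness of pattern was described over the 12 samples. PAT2 and ACK1 had a Pearson r of 0.93 over 12 samples of log2(RPKM + 1), which placed ACK1 21st among the 14310 other models by likeness to PAT2, and PAT2 37th by likeness to ACK1. With the TS4 column left out the r was 0.930, and these places were 71st and 55th. Each of them with ACK2 had an r of 0.356 (PAT2) and 0.384 (ACK1), or 0.593 and 0.548 without that column. PAT1 was at 0 in 8 of the 12 samples, so any r with it sets CC-124, and with all columns crr1:CRR1 at 6 h, against zeros; with ACK2 it was 0.889, or 0.886 without the TS4 column. The median r of a member with all models was 0.07 to 0.17. Over all columns, the most alike models were Cre23.g766100.t1.1 for PAT2 (r = 0.988), Cre09.g386850.t1.2 for ACK1 (0.986), Cre06.g277896.t1.1 for PAT1 (0.996) and Cre10.g431550.t1.1 for ACK2 (0.979). Without the TS4 column these values were 0.976, 0.975, 0.998 and 0.954. The last model stood at 17.5, 13.7 and 11.6 RPKM in CC-124 and at 15.6 in the TS4 column, and at 6.64 to 10.1 as the mean of any crr1-derived sample. The 12 samples share strains, so r is a description of levels by strain and stage.

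A list of 18 further identifiers was followed beside the 4 genes, and 14 of them were in the table. It was drawn up to cover the pyruvate, acetyl-CoA and acetate branches and also hydrogenases and their maturation factors. The list was chosen with earlier results of these data known, so its counts are a description and not a test. The reference table gives none of the identifiers a symbol, so they are described by count. Cre03.g199800.t1.1, Cre09.g396600.t1.1, Cre06.g296750.t1.1 and Cre06.g296700.t1.1 were listed as hydrogenases or maturation factors. Each of these is among the models called higher at 0.5 h. At 0.5 h 7 of the 14 were called higher and 0 lower in limma, beside 3.41% and 4.92% of all models tested, with a median of 1.06 beside 0.02 over all models. At 6 h against the light 5 were higher and 3 lower (median 0.04), beside 4.49% and 7.03% of all models. From 0.5 h to 6 h 0 were higher and 6 lower (median -0.85), beside 3.40% and 5.19%. With the TS4 column left out, the counts were 8 and 0, 6 and 3, and 0 and 6. The largest rises at 0.5 h were 3.06 in Cre06.g296700.t1.1 and 2.83 in Cre06.g296750.t1.1 (adjusted p = 1.04e-05 and 8.41e-05). Both remained called higher at 6 h against the light, at 2.14 and 2.05, unlike ACK1, whose level at 6 h was not above that in the light. In the 2 with the largest falls over all columns of the 3 called lower at 6 h, the values at 0.5 h and 6 h were -0.26 and -1.62 in Cre07.g324550.t1.2 (adjusted p at 6 h = 1.27e-05, limma) and 0.01 and -1.53 in Cre03.g165700.t1.2 (adjusted p at 6 h = 0.00121), and neither was called at 0.5 h. Without the TS4 column their 6 h values were -1.69 and -1.29. That of Cre03.g149100.t1.1, also called lower, was then -1.38, a larger fall than that of Cre03.g165700.t1.2.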

How the data were processed

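RNA of 12 samples was sequenced, and the authors deposited 1 table of 17301 models in 20 columns, as RPKM values that they had scaled to model length and library depth. No header names this unit; it was read from the values, since 589 of 592 low models have a length that gives whole reads in every column within 0.05 read. Reads, depths (the largest that the steps allow) and limits of 3 reads follow from that, and cover counting error only. Bowtie is named per the submitters' processing notes. Genome build, annotation, counting, strand setting and multiply mapped reads are not given in these sources. Column names were matched to the labels by their strain abbreviations, that of crr1 by elimination. Repeat columns were averaged on the log2 scale and count as 1 replicate; nothing says that they came from separate cultures. Printed sample levels are arithmetic means.

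Values were tested as log2(RPKM + 1), which understates changes of low models, with limma 3.58.1 in R 4.3.3 (mean-variance trend, Benjamini-Hochberg over the 14311 models that average 1 RPKM or more). Time comparisons had strain as a block (6 residual degrees of freedom), so strains pair the samples. Models were called at an adjusted p below 0.05 and a log2 difference of at least 1, and differences between strains at that p alone. The code was tested on simulated data. Named models were the 4 genes, their neighbours, the pathway list, and the models with the highest r. The members and lists were chosen with earlier results of these data known. Alternatives were other pseudocounts, filters, scalings, averaging, series, strains left out and no block. Of the models, 12666 match a locus tag of the reference table, which pairs none of the members or listed identifiers with a symbol; member names are those the genes are known by.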

Additional observations from a re-analysis of the deposited data

Results flagged for a closer look

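Of 24 sets of 4 strain values (levels and responses of the 4 genes), 5 held a strain that lay far from the other 3 by Dixon's criterion. Chance alone flags about 1 in 20 sets. That rate cannot be set against this count, because the sets share samples and PAT1 is at 0 in other strains. All 5 were CC-124. The level of ACK1 at 0.5 h was 102 RPKM in CC-124 beside 50.7 to 56.3 in the other strains. PAT1 in CC-124 stood at 24.2 RPKM in the light, 26.3 at 0.5 h and 46.7 at 6 h, beside strains at 0, except crr1:CRR1 at 6 h through its TS4 column. With 3 strains at 0, any level of PAT1 in CC-124 in the light or at 0.5 h would be flagged. The response of PAT1 at 0.5 h was 0.11 in CC-124 and 0 in the 3 strains without reads, so that flag follows from the zeros too.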

How the results depend on the processing

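The rise of ACK1 at 0.5 h and the falls of PAT2 and ACK1 from 0.5 h to 6 h were called under every alternative run. Without strain as a replicate block, the counts of models called higher and lower were 421 and 652 at 0.5 h, 549 and 939 at 6 h and 413 and 638 between them, and no member's call changed. PAT2 at 6 h against the light was -0.80 in the TS2 columns, and -1.64 to -0.88 with each strain left out; ACK1 there was -1.04 to -0.48, passing without CC-124. ACK2 from 0.5 h to 6 h was -0.14 to 0.00 with a strain left out. PAT1 at 0.5 h turned to -0.02 in TS2. With a pseudocount of 0.1, 747 models were higher at 0.5 h, and 739 higher and 1133 lower from 0.5 h to 6 h. With 5, the counts were 248 and 299 at 0.5 h, 287 and 506 at 6 h and 188 and 365 between them. The causes of changes were not tested.

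Differences between strains moved most. Without the TS4 column, full-length minus crr1 at 6 h was 0.01 (PAT2), 0.06 (ACK1) and -0.08 (ACK2), against -0.61, -0.39 and 0.10, with 2 models called higher (1 with linear averaging). Against crr1dCys at 6 h, PAT2 turned from -0.15 to 0.48 without the TS4 column, 0.01 with a pseudocount of 5 and 0.08 with linear averaging, ACK1 to 0.05 without that column, and ACK2 to -0.06 without it, -0.03 under median-of-ratios scaling and -0.07 under quantile normalization. That normalization gave -0.08 (ACK1) and -0.06 (ACK2) at 0.5 h. CC-124 minus the others at 0.5 h was -0.04 for PAT2 under median-of-ratios scaling and -0.05 to 0.16 with a strain left out; PAT1 at 6 h was -0.13 with a pseudocount of 0.1. None of these passed a test.

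Models called in CC-124 minus the others numbered 40 higher and 4 lower at 0.5 h, and 43 and 21 at 6 h. Without the TS4 column they were 172, 17, 145 and 150. A pseudocount of 0.1 gave 0, 0, 24 and 13, and a pseudocount of 5 gave 95, 9 and 92 for the first 3. Linear averaging gave 81 higher at 0.5 h and 38 lower at 6 h, no filter 25 higher at 0.5 h, and a mean of at least 5 RPKM 2 lower at 0.5 h and 25 and 9 at 6 h. Quantile normalization gave 8 lower at 0.5 h and 33 lower at 6 h, and median-of-ratios scaling 35 lower at 6 h. With a strain left out the ranges were 0 to 191, 0 to 22, 3 to 235 and 1 to 258. Depth limits the lowest values most: PAT2 and ACK1 in the TS4 column rest on 96 and 52 reads, and on at least 678 and 231 elsewhere.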
